A study of Ericerus pela with 2 samples.

Results

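The unigenes described here are those whose best protein database match names a cytochrome P450 or one of the ecdysteroid-making P450 genes of insects. A unigene is an assembled transcript fragment of a species for which no genome was used, named by its identifier. The match text of each unigene was searched, ignoring case, for "cytochrome P450", for the gene names phantom, disembodied, shadow, shade and spook, and for CYP followed by a digit. Of 120710 unigenes with at least 1 read, 27626 had a database match and 157 met the rule. Of these, 154 named a P450 enzyme and 3 named NADPH-cytochrome P450 reductase, which passes electrons to P450 enzymes. The phrase "cytochrome P450" was in 150 of the match texts. None of the 5 gene names was in any match text, so the ecdysteroid-making members were found by their family numbers alone.

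The reads came from 2 RNA libraries of wild type male Ericerus pela, a scale insect known as the Chinese white wax scale, with 1 library of prepupae and 1 of pupae. The labelled age is 90 for both, without a unit. Per the labels' protocols each library was made from whole bodies, while the submitters' design note names the retina and states that there were no replicates. The totals were 2182108 reads in prepupae and 1840877 in pupae, so the prepupal library was 1.19 times as deep.

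With 1 library per stage there is no replicate check, and neither a test nor a p-value can be given. The measure of difference is the log2 ratio of RPKM (reads divided by unigene length and by library size) in pupae to RPKM in prepupae, with 1 added to each. A unigene with a mean RPKM of at least 1 is called higher in pupae at a log2 ratio of 1 or more and lower at -1 or less. Folds of single unigenes and of sums compare reads after division by each library total, with an exact conditional binomial 95% interval that covers counting error only. In whole bodies, fewer cells of a type and less RNA per cell cannot be told apart.

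Cytochrome P450 enzymes are heme-containing monooxygenases that add oxygen to lipids, hormones and other small molecules. Those of insects fall into clan 2, clan 3, clan 4 and a mitochondrial clan, and each family carries a number after the letters CYP. In Drosophila, P450 enzymes called CYP302, CYP306, CYP307, CYP314 and CYP315, the products of the Halloween genes, make the moulting hormone 20-hydroxyecdysone from sterols, and CYP18A1 inactivates it. Other P450 enzymes take part in the synthesis of juvenile hormone, the hormone that holds back metamorphosis, and in the making of cuticular hydrocarbons. Males of scale insects pass through prepupal and pupal stages before they become winged adults, which the wingless females do not. A family number below is that of the best-matched protein and is not established for the wax scale gene itself.

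As a whole, the 157 members, the 3 P450 reductase unigenes among them, held 4718 prepupal reads and 5111 pupal reads. This was 0.216% of the prepupal library and 0.278% of the pupal library, a ratio of 1.28 (95% interval 1.23 to 1.34). The 154 P450 enzyme unigenes alone held 4340 and 4768 reads, a ratio of 1.30 (1.25 to 1.36). More single members were lower than higher, however. Of the 152 members that passed the filter on mean RPKM, 68 were lower in pupae, 37 were higher and 47 were called neither. That is 44.7% lower and 24.3% higher. The remaining 5 members were under the filter. Among all 113976 filtered unigenes 39.4% were lower and 23% were higher by the same rule, and among those with a database match 41.4% were lower and 14.7% were higher. The median log2 ratio of the members was -0.70, beside -0.49 over all filtered unigenes and -0.68 over those with a match. By this median the members lay close to the unigenes with a match. Their share of higher calls was near that of all filtered unigenes but above the 14.7% of those with a match. The direction of the calls depended on how the libraries were scaled. Lower calls made up 64.8% of the members' calls with the deposited RPKM and 53.5% after scaling by TMM, which moved the median of all unigenes up by 0.36. After centring on the median of all unigenes they made up 51.0%. Of the 68 lower calls, 53 were kept under TMM and 50 after centring. Both scalings shift log2 ratios by too little to turn a lower call into a higher one.

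**Figure D1:**
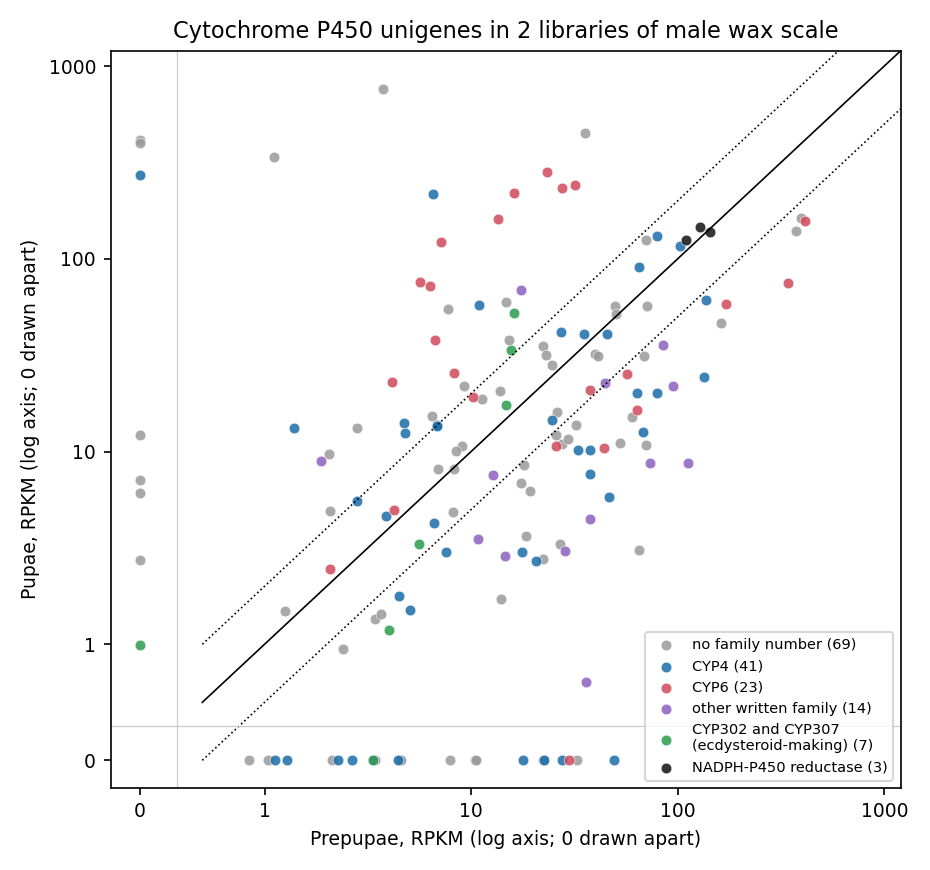
RPKM of each of the 157 members in prepupae (x axis) and in pupae (y axis), both on log axes with 0 drawn apart, coloured by the family of the matched protein. The solid line marks equal values and the dotted lines a 2-fold difference; points spread widely on both sides, and those at the upper left include members with 0 to 2 prepupal reads and up to 342 pupal reads.

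The most abundant members differed between the libraries. The 10 members with the most reads held 42.1% of the members' reads in prepupae and 44.9% in pupae, and the 2 lists of 10 had 1 member in common. That member was the P450 reductase Unigene150327_FOB, so no P450 enzyme was in both lists. Across the 157 members, Spearman's rho between RPKM in prepupae and in pupae was 0.39, beside 0.57 across all filtered unigenes. The members include those under the filter, and the 2 sets were not matched for reads or length. The gap between these values is therefore not read as a trait of P450 unigenes. Each rho is a description over unigenes of the same 2 libraries, which share their depth.

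**Figure D2:**
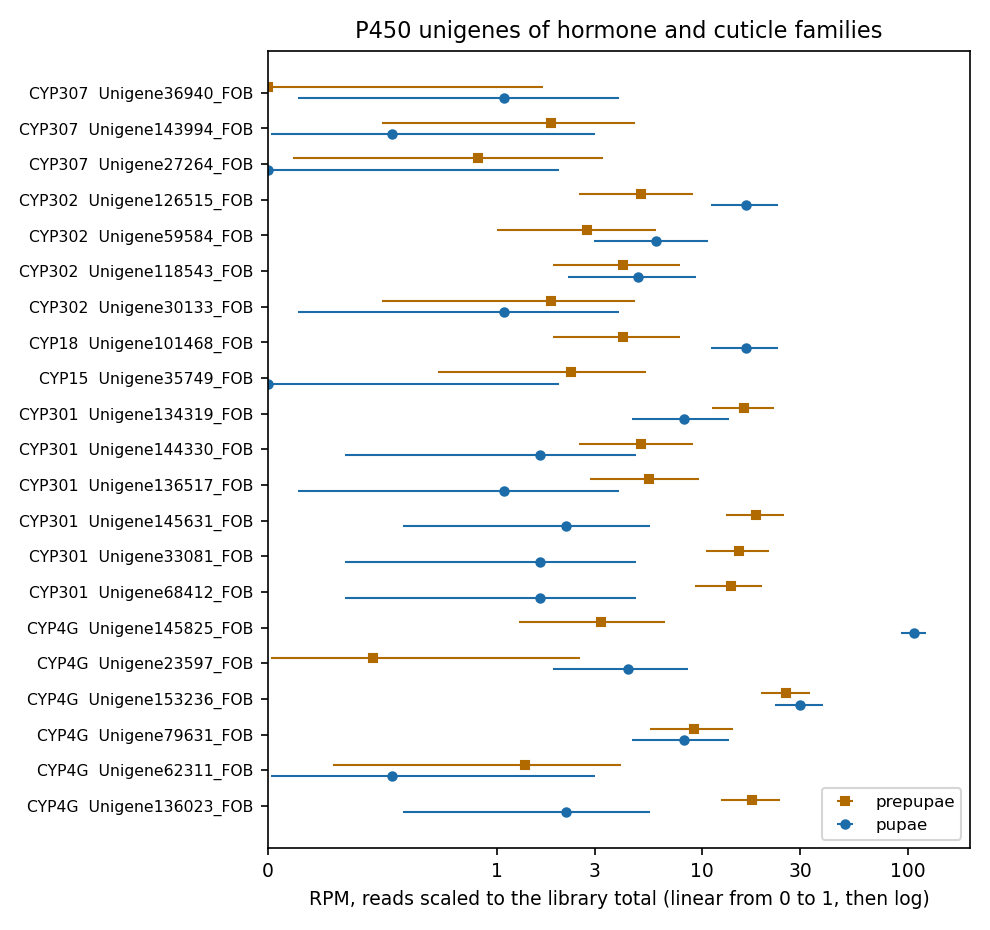
Reads scaled to the library total, in RPM (x axis, linear from 0 to 1 and then logarithmic) of each unigene matching families with a known hormone or cuticle role in other insects, in prepupae (squares) and pupae (circles), with exact Poisson 95% intervals for counting error. The CYP301 unigenes lie to the left in pupae, CYP18 and 1 CYP302 unigene to the right, and the CYP4G unigenes go both ways.

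The ecdysteroid-making members were few and sparsely read. They comprised 4 unigenes of CYP302 and 3 of CYP307; together these had 36 prepupal and 55 pupal reads, a ratio of 1.81 (1.17 to 2.84). Of the 6 that passed the filter, 2 were higher, 2 were lower and 2 were called neither, and both lower ones had at most 4 reads in a library. That is 33.3% in each direction. Among all filtered unigenes 23% were higher and 39.4% lower, and among those with a match 14.7% and 41.4%. With 6 sparsely read unigenes these shares are not compared further. No match text named CYP306, CYP314 or CYP315, whose Drosophila members are phantom, shade and shadow.

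CYP302A1, known in Drosophila as disembodied, is a mitochondrial hydroxylase of the ecdysteroid pathway. Unigene126515_FOB, 313 bases long and matched to CYP302a1 of the ant Camponotus floridanus, had 11 reads in prepupae and 30 in pupae. That is a 3.23-fold higher share in pupae (1.57 to 7.15), with a log2 ratio of 1.63. It was the only unigene of the family whose counting interval did not include equal shares. Unigene59584_FOB, matched to CYP302A1 of the pea aphid Acyrthosiphon pisum, had 6 and 11 reads, a ratio of 2.17 (0.737 to 7.16). Unigene118543_FOB, matched to CYP302a1 of the wasp Nasonia vitripennis, had 9 reads in each library. Unigene30133_FOB, also matched to the pea aphid protein, had 4 and 2 reads. Summed over its 4 unigenes, CYP302 had 30 reads in prepupae and 52 in pupae, a ratio of 2.05 (1.29 to 3.34).

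CYP307A1, known in Drosophila as spook, acts early in the same pathway, where its exact reaction is not settled. Its 3 unigenes held 6 reads in prepupae and 3 in pupae, too few to give a direction. Unigene143994_FOB, matched to CYP307A1 of the beetle Tribolium castaneum, had 4 reads and 1 read. Unigene27264_FOB had 2 prepupal reads and none in pupae. Unigene36940_FOB, at 1095 bases the longest of the ecdysteroid-making unigenes, had none in prepupae and 2 in pupae. The last of these had a mean RPKM under the filter. A count of 0 allows up to 3 reads, which is 1.37 RPM (reads scaled to the library total) in prepupae and 1.63 in pupae, so none of these differences was detectable at this depth.

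CYP18A1 stood with the higher members. In Drosophila this enzyme hydroxylates and so inactivates ecdysteroids. Its single unigene, Unigene101468_FOB, was matched to CYP18a1 of Camponotus floridanus and had 9 reads in prepupae and 30 in pupae. Its share of reads was 3.95-fold higher in pupae (1.83 to 9.46), and its log2 ratio was 1.92. The Gene Ontology terms that the deposited tables give it include steroid catabolic process.

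CYP15A1 is the methyl farnesoate epoxidase of juvenile hormone synthesis in the cockroach Diploptera punctata. Unigene35749_FOB, 682 bases long and matched to that cockroach protein, had 5 reads in prepupae and none in pupae. Against a floor of 3 reads, and with the 5 reads taken as exact, this would be 1.41-fold lower in pupae. The counting interval reaches a ratio of 1.29 and so includes equal shares, and no direction is given. The other enzymes of juvenile hormone synthesis and of the mevalonate pathway that feeds it were represented by 23 unigenes, found by name. Of the 22 that passed the filter, 15 were lower in pupae and 1 was higher, where 41.4% and 14.7% of unigenes with a match were. Their reads came to 789 in prepupae and 373 in pupae.

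This list fell into 2 sorts by enzyme. HMG-CoA reductase, the early rate-setting enzyme of the mevalonate pathway, had 5 unigenes that held 154 prepupal and 219 pupal reads, a ratio of 1.69 (1.37 to 2.09), and none of them was lower. Unigene151402_FOB, the reductase unigene with the most reads, had 54 and 78. The other 18 unigenes held 635 and 154 reads, 3.48-fold lower in pupae (2.91 to 4.18). Among them Unigene145472_FOB, a farnesyl diphosphate synthase, had 116 and 37 reads. Unigene26642_FOB, a phosphomevalonate kinase, had 92 and 24, and Unigene154009_FOB, a mevalonate kinase, had 67 and 17. The split by enzyme was made after the values were seen.

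Sterol handling proteins, which bring the ecdysteroid precursors into and across cells, were lower in pupae in all 5 unigenes found by name. Among all unigenes with a match 41.4% were lower. The 5 held 239 reads in prepupae against 44 in pupae (4.58-fold lower, 3.31 to 6.47). Of the 5, 4 matched the cholesterol transporter Niemann-Pick C1. Their reads were 67 and 14 in Unigene154251_FOB, 64 and 9 in Unigene78145_FOB, 51 and 10 in Unigene23609_FOB, and 49 and 11 in Unigene141016_FOB.

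Mitochondrial P450 enzymes receive their electrons from adrenodoxin and adrenodoxin reductase, and those of the endoplasmic reticulum from NADPH-cytochrome P450 reductase. None of the 3 P450 reductase unigenes differed between the libraries beyond its counting interval. Unigene150327_FOB had 167 reads in prepupae and 162 in pupae, Unigene145033_FOB had 149 and 121, and Unigene111396_FOB had 62 and 60. Their sum gave a ratio of 1.08 (0.927 to 1.25), and none was called. The mitochondrial adrenodoxin reductase, Unigene156465_FOB, had 118 reads in prepupae and 15 in pupae and was 6.64-fold lower (3.86 to 12.2). An NADH-cytochrome b5 reductase, Unigene153267_FOB, had 93 and 79 reads, a ratio of 1.01 (0.736 to 1.37). Over the 10 electron partners other than P450 reductase, 6 were lower, none was higher, and reads were 433 and 186. Among all unigenes with a match 41.4% were lower and 14.7% were higher.

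Heme, the prosthetic group of every P450, is made in a short pathway that begins with aminolevulinate synthase. All but 1 of the 14 unigenes for its synthesis and breakdown were lower in pupae, where 41.4% of unigenes with a match were, and none was higher. Their reads came to 979 in prepupae against 246 in pupae, or 3.36-fold lower (2.92 to 3.88). Unigene46915_FOB, an aminolevulinate synthase, had 117 and 40 reads. Protoporphyrinogen oxidase, the next-to-last enzyme, had 141 and 23 reads in Unigene155639_FOB. The uroporphyrinogen synthase unigene, Unigene155686_FOB, had 129 and 40. Heme oxygenase, which breaks heme down, had 165 and 43 in Unigene150826_FOB.

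The summed reads of the mitochondrial clan were lower in pupae. Its 13 unigenes, which include the 4 of CYP302, held 308 reads in prepupae and 103 in pupae, or 2.52-fold lower (2.01 to 3.18). Of the 13, 7 were lower, or 53.8% where 41.4% of unigenes with a match were, 2 were higher and 4 were called neither. Under TMM 6 were lower and when centred 5. Both higher ones were of CYP302. CYP301 made up the largest group. CYP301A1 takes part in forming the adult cuticle in Drosophila. The 6 unigenes of this family held 161 prepupal and 30 pupal reads, 4.53-fold lower in pupae (3.05 to 6.93), and 5 (83.3%) were called lower. Unigene145631_FOB, matched to CYP301A1 of Tribolium castaneum, had 40 reads in prepupae and 4 in pupae. Unigene33081_FOB and Unigene134319_FOB, both matched to CYP301B1 of the same beetle, had 33 and 3, and 35 and 15. The second of these was the family's 1 member called neither. Several of the 6 may be pieces of the same transcript.

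Family 49 gave the largest fold lower with reads in both libraries. Unigene154740_FOB, 849 bases long and matched to CYP49a1 of the honey bee, had 67 reads in prepupae and 1 in pupae, or 56.5-fold lower (9.80 to 2265). In prepupae reads covered 82.3% of its length and in pupae 5.77%. The remaining written families were each seen in a single unigene. CYP305A1 had 46 and 3 reads, CYP319A1 had 36 and 7, CYP44A1 had 34 and 12, CYP353A1 had 16 and 8, and CYP3A2, a name from a mussel, had 1 and 4. Over the 14 unigenes of written families other than CYP4, CYP6, CYP302 and CYP307, 10 were lower, 2 were higher and reads were 375 and 95, 3.33-fold lower (2.65 to 4.22). Those calls are 71.4% lower and 14.3% higher, beside 41.4% and 14.7% of unigenes with a match.

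**Figure D3:**
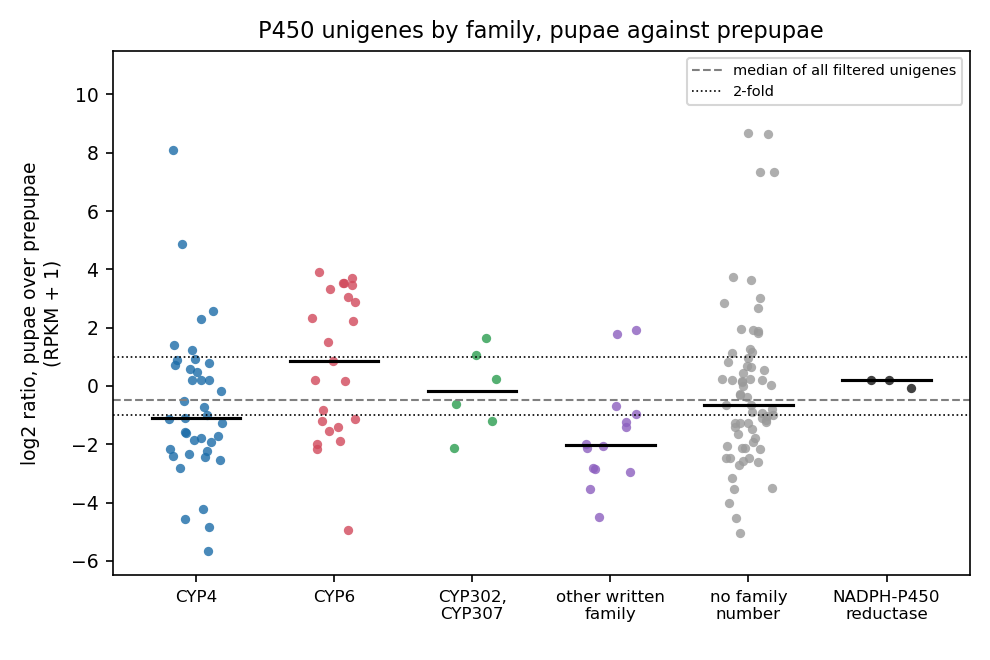
Log2 ratio of RPKM + 1 in pupae over prepupae (y axis) for each member that passed the filter, by family of the matched protein (x axis); short bars are medians. The dashed line is the median of all filtered unigenes at -0.49 and the dotted lines mark 2-fold; the CYP6 median is 0.85 and the CYP4 median is -1.10.

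CYP4 was the largest family with a written number, with 41 unigenes of which 39 passed the filter. Of these 20 were lower in pupae, 6 were higher and 13 were called neither, and the median log2 ratio was -1.10. That is 51.3% lower and 15.4% higher, beside 41.4% and 14.7% of unigenes with a match. The summed reads of 1013 and 930 nevertheless gave a ratio of 1.09 (0.994 to 1.19). After scaling by TMM 17 were lower and 10 higher, and after centring on the median of all unigenes 17 and 11.

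CYP4G enzymes make cuticular hydrocarbons in Drosophila, where they act in the oenocytes, cells under the epidermis. The 6 CYP4G unigenes held 125 reads in prepupae and 280 in pupae, a ratio of 2.66 (2.14 to 3.31), and 1 of them gave most of the pupal reads. Unigene145825_FOB, 491 bases long and matched to CYP4G48 of the moth Zygaena filipendulae, had 7 reads in prepupae and 197 in pupae, or 33.4-fold higher (15.9 to 84.1). In the opposite direction, Unigene136023_FOB, matched to CYP4G25, had 38 and 4 reads and was 8.01-fold lower (2.89 to 30.9). The longest CYP4G unigene, Unigene153236_FOB, was matched to the same moth protein as the first and had 56 and 55 reads, a ratio of 1.16 (0.788 to 1.72). Unigene79631_FOB had 20 and 15 reads, Unigene23597_FOB had 1 and 8, and Unigene62311_FOB had 3 and 1. The first 2 of the 6 thus went opposite ways by more than their counting intervals, and the longest did not differ beyond its interval.

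The other 35 CYP4 unigenes held 888 prepupal and 650 pupal reads, a ratio of 0.868 (0.783 to 0.961). Unigene128302_FOB, named only as a family 4 cytochrome P450 of the termite Mastotermes darwiniensis, had no read in prepupae and 161 in pupae, at least 63.6-fold higher. In contrast, Unigene36406_FOB, matched to a CYP4 of the crayfish Cherax quadricarinatus, had 66 reads in prepupae and none in pupae, at least 18.6-fold lower, over 1095 bases. Unigene144485_FOB, matched to CYP4A7 of the pea aphid, had 137 and 21 reads and was 5.50-fold lower (3.46 to 9.18). The 7 unigenes of subfamily 4C held 233 and 76 reads, 2.59-fold lower (1.99 to 3.40). Of the 6 that passed the filter 5 were lower and 1 was higher, where 41.4% and 14.7% of unigenes with a match were. Unigene151606_FOB of this subfamily, matched to CYP4C39 of the shore crab, had 90 and 24. The 8 unigenes named CYP4V2 held 154 and 147 reads, a ratio of 1.13 (0.896 to 1.43).

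In CYP6, a large clan 3 family of insects, more members were higher than lower in pupae. All 23 unigenes passed the filter, 11 were higher, 8 were lower and 4 were called neither, and the median log2 ratio was 0.85. The higher ones are 47.8% of the family, where 23% of all filtered unigenes and 14.7% of those with a match were higher. The summed reads were 1082 in prepupae and 1211 in pupae, a ratio of 1.33 (1.22 to 1.44). Under both TMM scaling and centring 12 were higher and 5 were lower.

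The higher CYP6 unigenes had few prepupal reads, at most 17 each. Unigene138581_FOB, matched to CYP6N3v4 of the mosquito Aedes albopictus, had 14 reads in prepupae and 161 in pupae, or 13.6-fold higher (7.89 to 25.5). Unigene144943_FOB, matched to CYP6a20 of Camponotus floridanus, had 14 and 140 reads. The 4 unigenes matched to CYP6AY1 of the pea aphid had 32 reads in prepupae and 166 in pupae in all, 6.15-fold higher (4.19 to 9.28), and 3 were called higher. Of these, Unigene139575_FOB had 5 and 57 reads and Unigene3771_FOB had 7 and 68. None of the CYP6AY1 unigenes was lower. Among unigenes with a match 14.7% were higher and 41.4% were lower.

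Of the 8 lower CYP6 unigenes, 3 were among the 5 members with the highest RPKM in prepupae. Unigene51198_FOB, matched to CYP6BQ4 of Tribolium castaneum, had the highest prepupal level of all members, 414 RPKM, with 150 reads in prepupae and 48 in pupae. It was 2.64-fold lower (1.89 to 3.73), but is called neither under TMM scaling and under centring. Unigene156192_FOB, 1057 bases long and matched to CYP6BK2 of the same beetle, had the most prepupal reads of any member, 397, and 113 in pupae. Unigene129087_FOB, matched to CYP6AX1 of the pea aphid, had 243 and 45 reads and was 4.56-fold lower (3.30 to 6.41).

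CYP6AX1 was the name with the most CYP6 unigenes, and these went both ways. Of the 8, 3 (37.5%) were higher and 4 (50%) were lower, beside 14.7% and 41.4% of unigenes with a match. Their sum was 390 and 343 reads, a ratio of 1.04 (0.899 to 1.21). The lower ones include Unigene144561_FOB with 45 and 9 reads. The higher ones include Unigene27230_FOB with 5 and 72, 17.1-fold higher (6.99 to 54.2), and Unigene100858_FOB with 12 and 123.

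**Figure D4:**
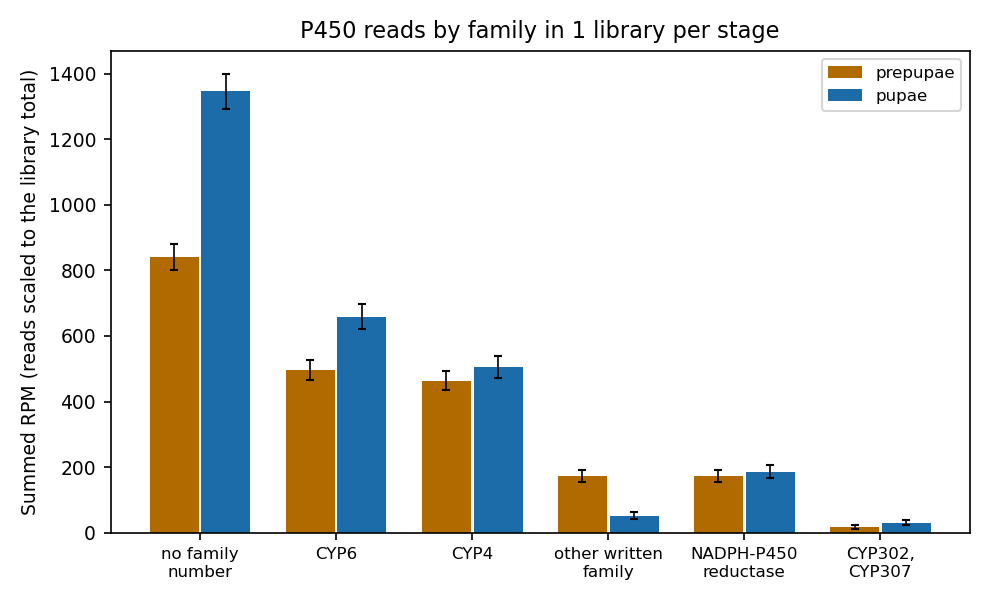
Summed RPM (y axis, from 0) of the members by family of the matched protein (x axis) in the prepupal and the pupal library, with exact Poisson 95% intervals for counting error. Unigenes with no family number and CYP6 are taller in pupae, other written families are shorter, and CYP4 and the P450 reductase are nearly level.

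Members with no family number in their match text were the largest group, with 69 unigenes. Of the 67 that passed the filter 28 were lower, 16 were higher and 23 were called neither. That is 41.8% lower and 23.9% higher, close to the 39.4% and 23% of all filtered unigenes. Among unigenes with a match 41.4% were lower and 14.7% were higher. The group's summed reads of 1834 in prepupae and 2477 in pupae nevertheless gave a ratio of 1.60 (1.51 to 1.70). Much of the pupal sum lay in a few unigenes. Unigene105197_FOB, with 2 reads in prepupae and 342 in pupae, had the highest level of all members in either library, 758 RPKM in pupae. Its ratio was 203 (55.7 to 1680). Unigene141847_FOB had no prepupal read and 318 in pupae, at least 126-fold higher. Unigene78786_FOB had none and 152, at least 60.1-fold higher. These 3 were matched to pea aphid proteins called only cytochrome P450.

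A pair of further unnumbered unigenes were matched to mosquito proteins. Unigene145761_FOB had 38 reads in prepupae and 406 in pupae, or 12.7-fold higher (9.07 to 18.2), the most pupal reads of any member. Unigene140097_FOB had 1 and 256, a ratio of 303 (54.0 to 12032). The 5 unnumbered unigenes described so far had at most 35.6 RPKM in prepupae and at least 337 RPKM in pupae.

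Some of the unnumbered unigenes that were lower in pupae were abundant in prepupae. Unigene101340_FOB had 204 reads in prepupae and 71 in pupae, and its prepupal level of 394 RPKM was the second highest of all members. Unigene135553_FOB had 373 RPKM in prepupae and 139 in pupae, or 2.68-fold lower (2.12 to 3.41). Both were lower by the 2-fold rule, but after centring on the median of all unigenes both are called neither. Others kept their call under both scalings, among them Unigene115276_FOB with 95 and 23 reads, Unigene145712_FOB with 56 and 10, Unigene157243_FOB with 48 and 5, Unigene133864_FOB with 47 and 10, and Unigene123735_FOB with 46 and 6. Unigene157243_FOB, at 1572 bases, is the longest unigene named here.

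Much of the members' pupal sum lay in 10 unigenes. The 10 members with the most pupal reads held 243 reads in prepupae and 2295 in pupae, a ratio of 11.2 (9.80 to 12.8). The other 147 members held 4475 and 2816 reads, a ratio of 0.746 (0.711 to 0.782). The 10 were chosen by their pupal reads. That choice tends to raise their ratio and lower that of the rest, so both ratios are descriptions. The 10 members with the most prepupal reads, chosen in the same way, held 1985 and 831 reads, a ratio of 0.496 (0.457 to 0.538). The 10 with the most pupal reads include the P450 reductase Unigene150327_FOB, at 600 bases the longest of them. They were between 200 and 600 bases long, and 6 of them matched their protein with an E-value above 1e-20. The E-value of Unigene78786_FOB was 6.51e-06. Over the 73 members with an E-value of at most 1e-20, reads were 3235 and 2547, a ratio of 0.933. Of those that passed the filter, 15 (21.4%) were higher and 32 (45.7%) lower, beside 14.7% and 41.4% of unigenes with a match. Over the 39 members of at least 500 bases the ratio was 0.815 (0.752 to 0.883). These directions depended on the scaling. Under TMM the ratio was 1.23 over the strongly matched members, 1.07 over those of at least 500 bases and 0.981 without the 10.

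Members with many reads were called higher as often as lower. Of the 51 members with at least 50 reads over both libraries, 19 (37.3%) were higher and 18 (35.3%) were lower. Among all unigenes with that many reads 19.8% were higher and 36.2% were lower. Of the 106 P450 enzyme unigenes with fewer reads, the summed reads were 1337 in prepupae and 679 in pupae. Near the limit of a call, the members just inside it had log2 ratios of 1.07 and 1.13 among the higher and -1.02 and -1.10 among the lower, and those just outside had 0.94, 0.91, -0.99 and -0.98.

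**Figure D5:**
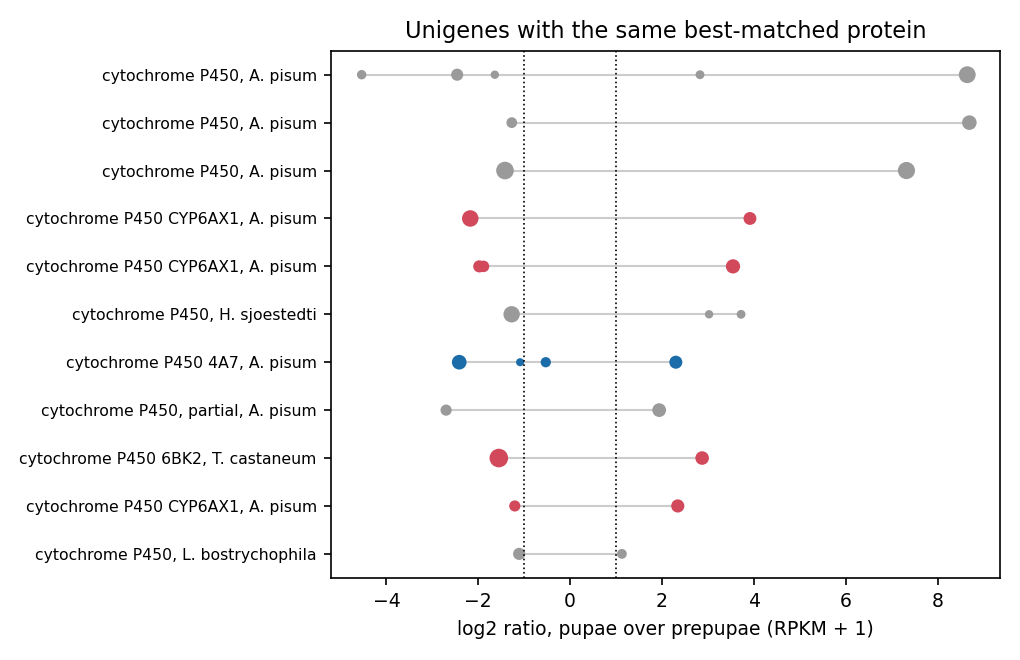
Log2 ratio of RPKM + 1 in pupae over prepupae (x axis) of P450 unigenes that share a best-matched protein (1 line per protein, labelled with its name and species), for the 11 proteins with both a higher and a lower unigene. Point area grows with the reads of the unigene, colours are CYP4 blue, CYP6 red and no number grey, and dotted lines mark 2-fold.

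Some unigenes matched to the same protein went opposite ways. The 154 P450 unigenes had 103 best-matched proteins, of which 71 were matched by 1 unigene and 32 by 2 or more. Of these 32 proteins, 11 had both a higher and a lower unigene, 14 had only lower or uncalled ones, 4 had only higher or uncalled ones and 3 had none called. Among the members as a whole 24.3% were higher and 44.7% were lower, so groups of unrelated members can also hold both calls. Whether 11 of 32 is more than such groups would give was not tested. The median spread of log2 ratios within a protein was 2.58. For 1 unnumbered pea aphid protein the 5 unigenes ranged from -4.54 to 8.65, with Unigene157243_FOB at 48 and 5 reads and Unigene141847_FOB at 0 and 318. For another, Unigene135553_FOB had 373 and 139 RPKM and Unigene105197_FOB had 3.74 and 758. The same was seen in CYP6, where Unigene129087_FOB and Unigene27230_FOB share a CYP6AX1 protein. The pair matched to CYP6BK2 were Unigene156192_FOB, with 397 and 113 reads, and Unigene79466_FOB, with 14 and 89. Whether such pairs are separate genes, splice forms or parts of 1 transcript was not tested, and the deposited counts hold only uniquely assigned reads, so near-identical copies may have lost reads.

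Summed reads differed with the species of the matched protein. The 51 members matched to the pea aphid, like the wax scale a sap-feeding hemipteran, held 1363 reads in prepupae and 1979 in pupae, with 16 higher and 18 lower. The 10 matched to Nilaparvata lugens, another sap-feeding hemipteran, held 193 and 69 reads, 2.36-fold lower (1.78 to 3.15), with none higher and 4 lower. The 21 matched to Tribolium castaneum held 1159 and 507 reads, 1.93-fold lower (1.74 to 2.14), with 2 higher and 12 lower. The 14 matched to animals other than insects held 455 and 193. Of those that passed the filter, 36.7% of pea aphid, 40% of Nilaparvata lugens and 57.1% of Tribolium castaneum matches were lower. Higher were 32.7%, 0% and 9.52%. Among all unigenes with a match 41.4% were lower and 14.7% were higher. The lower shares of the pea aphid and Nilaparvata lugens matches thus lay near that background.

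Summed reads of tissue markers also differed between the libraries. The 8 unigenes of muscle genes (muscle myosin heavy chain, troponin and tropomyosin) held 52 reads in prepupae and 443 in pupae, with 5 higher and 2 lower. The 9 fat body unigenes held 1181 and 520, with 4 lower, and no match named hexamerin, larval serum protein, storage protein or arylphorin. The 79 unigenes listed as gut markers held 3015 and 1601, with 47 lower and 9 higher. By name, 45 matched aminopeptidase N, 21 cathepsin, 8 trypsin, 3 peritrophin and 2 maltase. Of those passing the filter, 61.0% of the gut, 44.4% of the fat body and 25% of the muscle unigenes were lower. Higher were 11.7%, 0% and 62.5%. Among unigenes with a match 41.4% were lower and 14.7% were higher, so the fat body share lower lay near that background. Reads of all 3 marker sets were present in both libraries. The part of tissue composition in the P450 values was not tested.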

How the data were processed

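Per the file headers, the 2 deposited tables hold, by unigene, a count of reads assigned to it alone, a length, the percent of that length covered, an RPKM value, Gene Ontology terms and the best database match. The deposited RPKM equalled reads scaled to length and library total in 100% of rows of both tables (relative tolerance 1e-06). For assembler, aligner and database versions: not given in the sources used here. Tables were joined on the unigene identifier, and an absent unigene was given 0 reads. The family number was read from the match text.

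With 1 library per stage no test was run. Calls used a pseudocount of 1 RPKM, a mean RPKM of at least 1 and a 2-fold limit, over all unigenes. Ratios carry exact conditional binomial 95% intervals, and against 0 reads a floor of 3 reads gives a bound, which takes the other count as exact. PCR reads without molecular identifiers are not independent molecules, so intervals and floors cover counting error only. The log2 scale understates differences of low unigenes. Alternatives included TMM scaling (edgeR 4.0.16), used for scale factors alone.

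Named were all ecdysteroid-making, CYP18, CYP15 and CYP4G unigenes, the 12 largest and 12 smallest log2 ratios among the 46 other P450 unigenes with at least 50 reads, the 5 highest RPKM in each library, and up to 4 unigenes of each partner list by reads. Unigenes of CYP301, CYP305, CYP319, CYP44, CYP353, CYP3 and Unigene79466_FOB, were named after their values were seen. The members and lists were chosen with earlier results of these data known. The calling step was tested on simulated counts. Python 3.11.15, pandas 2.3.3, SciPy 1.17.1 and R 4.3.3 were used. No sequences of the unigenes were used here.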

Additional observations from a re-analysis of the deposited data

How the results depend on the processing

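No paired analysis was possible because there was 1 library per stage. Of 156 values recomputed under alternatives, 105 stayed within a set tolerance of the main value. For counts of calls this tolerance was wide. The members called lower went from 68 to 53 under TMM and to 50 when centred, and both were counted as within it. Where values moved beyond it, the cause was not tested unless fewer unigenes were kept. For the members' summed ratio of 1.28, TMM scaling gave 1.69 and leaving out the unigene with the most reads gave 1.37. The ratio reversed to 0.815 over unigenes of at least 500 bases, and at 50 reads or more it was 1.55. Counts of members higher and lower were 6 and 14 at 500 bases, 19 and 18 at 50 reads, where the median turned to 0.20, and 23 and 44 when unigenes with the same matched protein were summed. CYP4 had 10 higher and a summed ratio of 1.43 under TMM, 11 higher when centred, 2 higher, 3 lower and 0.958 at 500 bases, and 3 higher, 4 lower and 1.40 at 50 reads. CYP6 had 5 lower and 1.75 under TMM, 5 lower when centred, 4 lower at 50 reads, 6 higher and 3 lower when summed by protein, and 2 higher, 1 lower and a reversed 0.761 at 500 bases. Ecdysteroid-making members had 1 higher and 0 lower at a pseudocount of 5, 0 lower at a mean RPKM of 5, 1 lower under TMM and when centred, 0 and 0 at 500 bases, and 1 and 1 when summed by protein; none had 50 reads. Electron partners had 1 higher at a pseudocount of 0.1, under TMM and when centred, and juvenile hormone synthesis had 4 higher under TMM and when centred. Of alternatives chosen after seeing the data, adding the hyphenated spelling gave a summed ratio of 1.11. Leaving out the 10 members with the most pupal reads, a choice that itself tends to lower the ratio, reversed it to 0.746. An E-value of at most 1e-20 gave 15 higher, 32 lower and a reversed 0.933. With TMM as well, these last 2 summed ratios were 0.981 (still reversed) and 1.23, and that at 500 bases was 1.07. Among the 42 named members, 5 lost their call at a pseudocount of 5, 4 under TMM and 5 when centred. At a pseudocount of 0.1, under TMM and when centred, 1 gained a call. These settings move a log2 ratio by too little to change the sign of a called member. The uncalled Unigene79631_FOB went from a log2 ratio of -0.17 to 0.22 under TMM and 0.32 when centred.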

Other observations

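The spelling "cytochrome P-450", with a hyphen, falls outside the rule and was found in 12 further unigenes, 11 of them matched to the body louse. Of these, 7 were lower in pupae and 3 were higher, where 41.4% and 14.7% of unigenes with a match were. Reads of the 12 came to 1070 in prepupae against 298 in pupae, or 3.03-fold lower (2.66 to 3.46). The largest were Unigene150306_FOB, with 467 reads in prepupae and 18 in pupae, and Unigene148452_FOB, with 248 and 3. Unigene150306_FOB had more prepupal reads than any unigene kept by the rule. In the other direction Unigene149981_FOB had 28 and 128 reads.

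The Gene Ontology term steroid hydroxylase activity was given in the deposited tables to 6 members. They held 179 reads in prepupae against 28 in pupae, or 5.39-fold lower (3.61 to 8.35). By the 2-fold rule 5 were lower, where 41.4% of unigenes with a match were. Of the 6, 3 matched CYP301 and 1 matched CYP49. The other two name no family: Unigene122836_FOB had 21 reads in prepupae and none in pupae, and Unigene126219_FOB, which the tables also annotate with ecdysone metabolic process, had 28 and 18.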
